A study of Homo sapiens with 12 samples.

Results

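The 10 genes described here handle lactate and pyruvate, and they were chosen by name for their roles: the lactate dehydrogenase genes LDHA and LDHC, the lactate carriers SLC16A1 and SLC16A3 with their chaperone BSG, the subunits MPC1 and MPC2 of the mitochondrial pyruvate carrier, and PDK1, PDK3 and PDHA1 of the pyruvate dehydrogenase step. The choice was made with earlier results of these data known. Counts and medians of the members set beside those of all genes are therefore descriptive. All 10 were among the 26475 gene symbols measured, and all 10 were among the 14582 symbols with enough reads to be tested. Their mRNA was measured by RNA-seq in 12 libraries from MIAPaCa2, an established pancreatic ductal adenocarcinoma (PDAC) cell line, in 4 groups of 3: untreated parental cells, parental cells treated with oxamate, untreated oxamate-resistant cells and oxamate-resistant cells treated with oxamate. The control groups are called untreated here, as in the labels, while the study describes them as given vehicle. Oxamate is a pyruvate analogue that competes with pyruvate at lactate dehydrogenase, and the labels call it an LDHA inhibitor. All 4 groups come from the same line, and the resistant cells are described as polyclonal, selected over 4 weeks of continuous culture with sodium oxamate at 10 mM. Whether the 3 resistant libraries of a group came from 1 selected population or several, and the dose and duration of the oxamate treatment of these 12 samples, are not given in the sources used here.

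Lactate dehydrogenase converts pyruvate to lactate and back, and its active form is a tetramer of LDHA and LDHB subunits in most tissues. Lactate crosses the plasma membrane through monocarboxylate transporters, of which SLC16A1 encodes MCT1 and SLC16A3 encodes MCT4, and both need basigin, the product of BSG, to reach the cell surface. Pyruvate enters the mitochondrion through the MPC1 and MPC2 heterodimer, where the pyruvate dehydrogenase complex turns it into acetyl-CoA. The kinases PDK1 and PDK3 phosphorylate and switch off PDHA1, the catalytic E1 alpha subunit of that complex. PDAC cells are known for high lactate output, and LDHA, SLC16A3 and PDK1 are textbook targets of hypoxia-inducible factors, which bind DNA at the core letters ACGTG or GCGTG.

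The promoter windows of the 3 members that were upregulated by oxamate in both parental and resistant cells are shown with these letters marked. RefSeq windows on GRCh38.p14, from 250 bases upstream to 50 bases downstream of a transcript start, were found for 9 of the 10 members, SLC16A1 being the exception. LDHA and PDK1 have 2 windows each, and for each the window with more core letters is printed, 5′ to 3′ on the plus strand, with ACGTG or GCGTG in capitals, whichever strand carries it.
LDHA, chr11:18394313-18394612: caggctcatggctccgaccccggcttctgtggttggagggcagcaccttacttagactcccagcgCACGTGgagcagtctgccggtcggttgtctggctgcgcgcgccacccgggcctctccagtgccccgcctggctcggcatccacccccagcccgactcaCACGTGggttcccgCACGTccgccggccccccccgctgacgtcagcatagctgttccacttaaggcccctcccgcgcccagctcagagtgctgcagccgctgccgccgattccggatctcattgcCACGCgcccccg
PDK1, chr2:172555840-172556139: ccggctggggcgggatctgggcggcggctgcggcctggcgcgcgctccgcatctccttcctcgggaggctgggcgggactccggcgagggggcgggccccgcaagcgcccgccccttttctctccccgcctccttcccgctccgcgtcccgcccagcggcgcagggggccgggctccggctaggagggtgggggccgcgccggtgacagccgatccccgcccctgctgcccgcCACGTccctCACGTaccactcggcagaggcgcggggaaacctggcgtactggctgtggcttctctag
PDK3, chrX:24465036-24465335: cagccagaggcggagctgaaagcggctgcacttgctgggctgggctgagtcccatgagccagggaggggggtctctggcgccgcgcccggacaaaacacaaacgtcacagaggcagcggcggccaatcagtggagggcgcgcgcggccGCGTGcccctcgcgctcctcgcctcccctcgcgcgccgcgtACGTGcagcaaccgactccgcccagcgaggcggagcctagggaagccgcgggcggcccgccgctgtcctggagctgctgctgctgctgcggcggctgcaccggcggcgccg
The LDHA window held the core at 6 start positions, counting both strands, and among these were 2 copies of CACGTG, a palindrome in which the core is counted once on each strand. The PDK1 and PDK3 windows held the core at 2 start positions each. The other LDHA window held it at 1 start position and the other PDK1 window at 0. Of 18 windows of the 9 members, 13 held the core, and each of the 9 members had it in at least 1 window. Members without a rise held it as well. The PDHA1 window held it at 4 start positions and that of MPC1, which fell in parental cells, at 2. The core is common: 48.4% of 35116 RefSeq promoter windows of the same length held it, 23.1% held it at 2 or more start positions, and 7.26% held CACGTG. These shares are per window, so they are no match for the count per member, where some members had several windows. These matches describe the letters only, and binding was not measured here.

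On GENCODE 29 annotation (GRCh38), LDHA (ENSG00000134333) lies on the plus strand at chr11:18394388-18408425, and LDHC (ENSG00000166796) follows on the same strand at chr11:18412307-18452058, 3881 bp further on. SLC16A1 (ENSG00000155380) lies at chr1:112911847-112957013 and SLC16A3 (ENSG00000141526) at chr17:82228397-82261129. BSG (ENSG00000172270) lies at chr19:571277-583493, MPC1 (ENSG00000060762) at chr6:166364919-166383013 and MPC2 (ENSG00000143158) at chr1:167916729-167937040. PDK1 (ENSG00000152256) lies at chr2:172555373-172608669, and PDK3 (ENSG00000067992, chrX:24465221-24541862) and PDHA1 (ENSG00000131828, chrX:19343893-19361705) share the X chromosome. The libraries carry no strand mark, so reads from a stretch that overlaps an opposite-strand gene cannot be told apart, which for protein-coding neighbours concerns 1650 bp of PDHA1 (MAP3K15), 1258 bp of MPC2 (DCAF6) and 22107 bp of SLC16A3 (CSNK1D). Noncoding genes or pseudogenes on the opposite strand overlap PDK1 (AC078883.1 over 1224 bp, and RF00019 over 102 bp), BSG (AC009005.1, 952 bp), SLC16A1 (AKR7A2P1, 915 bp, and SLC16A1-AS1, 599 bp) and LDHC (AC027544.3, 757 bp), so LDHA, MPC1 and PDK3 were the members without such an overlap. Values were whole numbers in all libraries for 8 members, while PDHA1 in 12 of 12 libraries and MPC2 in 1 received fractions of reads that matched more than 1 gene.

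The 12 libraries held between 46698729 and 114222169 expected counts, and every parental library (59811522 or more) was deeper than every resistant library (55239600 or fewer). Levels are given as CPM, counts scaled to a common library size with TMM factors, and a floor of 3 counts corresponded to between 0.0283 and 0.0581 CPM, counting error only. The labelled line was checked against marker genes. KRT8, KRT18 and KRT19, keratins of epithelial cells, ran from 316 to 1601 CPM and VIM from 5917 to 10110 CPM, each lower in all 6 resistant than in all 6 parental libraries. The epithelial adhesion genes EPCAM and CDH1 were at or near 0 (at most 0.0503 CPM), and CDKN2A and MTAP, which this line is known to have lost, had 0 counts in all 12 libraries. Of the markers of other cell types, PTPRC, DCN and PECAM1 were at most 0.159 CPM and COL1A1 ran from 0.901 to 2.03 CPM. The nuclear-retained RNA MALAT1 stood apart in the third replicates of oxamate-treated parental cells (596 CPM, against 289 and 281) and of untreated resistant cells (597 CPM, against 273 and 244). In oxamate-treated resistant cells MALAT1 ran from 577 to 742 CPM. The libraries called MALAT1-rich below thus stood apart only within their own groups and were not the richest of all 12. Changes in the members' calls without both MALAT1-rich libraries are given where they occurred.

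The members spanned a wide range of expression. Per kilobase of the principal transcript, BSG came first in untreated parental cells at 818 ± 16.8 CPM per kb (SD, n = 3), followed by LDHA at 444 ± 5.61, SLC16A3 at 128 ± 6.86, PDHA1 at 82.2 ± 0.586 and SLC16A1 at 80.1 ± 2.26. MPC2 (33.7 ± 0.778), PDK3 (13.4 ± 0.203) and MPC1 (8.63 ± 0.108) came next on the same scale, and LDHC was the lowest at 0.359 ± 0.101 CPM per kb. The neighbours PDHA1 and SLC16A1 lay within their spread of each other. PDK1 came to 1.24 CPM per kb over its principal transcript of 14193 bases but to 11.7 over its shortest of 1515 bases, so its order relative to PDK3 and MPC1 could not be set. The choice of transcript also decides other places: with the longest and the shortest transcript, LDHA came to 444 and 7614 CPM per kb against 818 and 1685 for BSG, PDHA1 to 78.1 and 384 against 128 and 308 for SLC16A3, and MPC2 to 33.7 and 92.0 against 80.1 and 89.6 for SLC16A1. In all 4 groups MPC1 was far below its partner MPC2 on this scale, at 4.62 against 22.4 CPM per kb in oxamate-treated resistant cells. LDHB, the other main lactate dehydrogenase subunit gene, was not detectable at this depth, with 1 count in each of 2 libraries and 0 in the other 10, so that its level was under the floor of 3 counts everywhere.

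**Figure D1:**
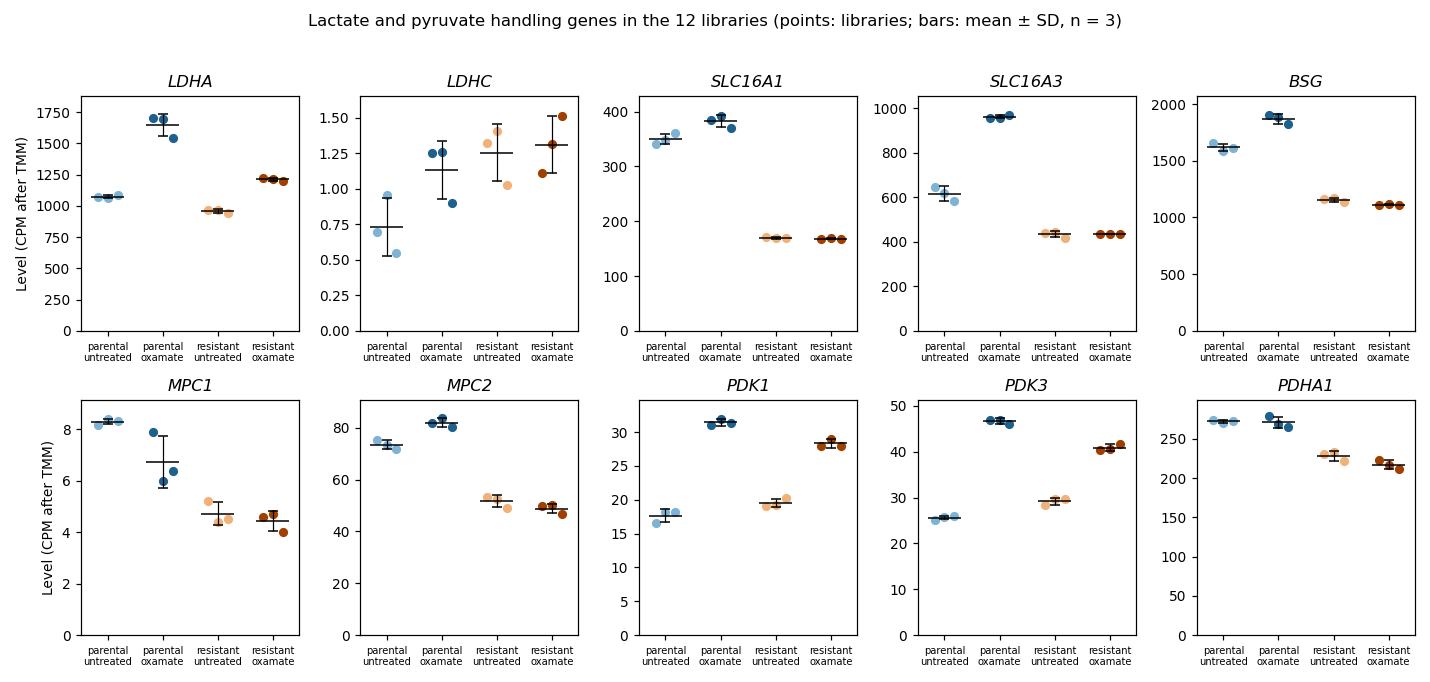
Levels of the 10 members in CPM after TMM normalization (vertical axes, linear and starting at 0) in the 4 groups (horizontal axes). Points are single libraries and bars are the mean ± SD of 3. LDHA, PDK1 and PDK3 are higher after oxamate in both pairs of groups, SLC16A3 separates in the parental pair (581 to 647 against 956 to 968 CPM) but not in the resistant pair, and SLC16A1 sits between 167 and 171 CPM in all 6 resistant libraries.

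The first comparison asked how parental cells responded to oxamate. Oxamate upregulated 8 of the 10 members in parental cells and downregulated MPC1, with PDHA1 the only member not called. The kinase genes PDK3 and PDK1 rose the most, by 1.82-fold and 1.78-fold, followed by SLC16A3 (1.56-fold) and LDHA (1.53-fold). A member was called at a Benjamini-Hochberg adjusted p under 0.05 in edgeR's quasi-likelihood test over all 14582 genes, a rule that called 58.7% of all genes tested in this comparison, 28.3% higher and 30.4% lower. The study itself used a fold over 1.5 together with an unadjusted p under 0.05, and by this threshold 5 members were higher and 0 lower, where 9.88% of all genes passed, 5.69% higher and 4.19% lower. Scaled by library size only, 7 members were called higher and 2 lower, PDHA1 joining MPC1, 2 members in place of 5 passed the study's threshold, and the share of all calls that were higher was 32.5% in place of 48.2%. The median log2 fold change was 0.40 over the members and 0.00 over all genes tested.

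LDHA stood at 1075, 1059 and 1086 CPM in untreated parental cells and at 1701, 1694 and 1546 CPM after oxamate. The groups did not overlap, and the log2 fold change was 0.62 ± 0.03 (SE, adjusted p = 3.25e-10). The testis-type gene LDHC was barely expressed, at 0.698, 0.954 and 0.547 CPM before and 1.25, 1.26 and 0.898 CPM after oxamate, and its groups overlapped. Its log2 fold change of 0.59 ± 0.21 (adjusted p = 0.0224) lost the call when any of 4 libraries was left out, replicates 1 and 3 of the untreated and replicates 1 and 2 of the oxamate-treated parental cells, with adjusted p between 0.0729 and 0.0795.

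Among the carriers, the export-associated SLC16A3 stood at 647, 620 and 581 CPM in untreated parental cells and at 956, 958 and 968 CPM after oxamate, without overlap, a log2 fold change of 0.64 ± 0.03 (adjusted p = 3.96e-10). SLC16A1 stood at 342, 348 and 361 CPM before and at 385, 392 and 370 CPM after oxamate, a small rise of 0.13 ± 0.03 on the log2 scale (adjusted p = 6.61e-04) that missed the threshold when libraries were scaled by size alone (adjusted p = 0.073). BSG stood at 1653, 1587 and 1614 CPM before and at 1906, 1885 and 1820 CPM after, with a log2 fold change of 0.21 ± 0.02 (adjusted p = 2.11e-06). SLC16A3 thus rose by 1.56-fold, against 1.09-fold for SLC16A1 and 1.16-fold for BSG.

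The pyruvate carrier genes moved in opposite directions. MPC1 fell from 8.19, 8.40 and 8.31 CPM to 7.89, 5.98 and 6.38 CPM, a log2 fold change of -0.30 ± 0.09 (adjusted p = 0.0093). The replicate at 7.89 CPM lay close to the untreated libraries, and without the second oxamate-treated replicate the adjusted p was 0.0502. MPC2 rose from 75.3, 73.2 and 71.9 CPM to 82.0, 83.6 and 80.1 CPM, a log2 fold change of 0.16 ± 0.03 (adjusted p = 0.00103).

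PDK1 rose from 16.6, 18.2 and 18.2 CPM in untreated parental cells to 31.0, 32.0 and 31.3 CPM after oxamate, a log2 fold change of 0.83 ± 0.04 (adjusted p = 1.91e-10). PDK3 rose from 25.2, 25.8 and 25.9 CPM to 47.0, 47.0 and 46.0 CPM, a log2 fold change of 0.86 ± 0.03 (adjusted p = 1.18e-11). Neither kinase had a library of 1 group within the range of the other. Their substrate gene PDHA1 stood at 274, 270 and 272 CPM before and 279, 269 and 265 CPM after oxamate, with overlapping groups and a log2 fold change of -0.01 whose 95% interval ran from -0.06 to 0.05 (adjusted p = 0.882). MALAT1 and NEAT1 were also higher after oxamate in parental cells, by 1.01 and 1.39 on the log2 scale, as were COL1A1 by 0.74 and KRT8, KRT18, KRT19 and VIM by 0.10 or less, all called, and their part in the members' changes was not tested.

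The second comparison asked how resistant cells responded to the same drug. Oxamate upregulated 3 of the 10 members in resistant cells, LDHA, PDK1 and PDK3, and downregulated 0. The same rule called 21.5% of all genes tested, 9.01% higher and 12.5% lower. None of the 10 members passed the study's threshold, which 2.50% of all genes passed (2.23% higher and 0.274% lower), and the median log2 fold change was 0.00 over both the members and all genes. The 3 calls stood with library size only, where 59.8% of all calls were higher in place of 41.9%. The count of called members was 6 without the pair of libraries rich in MALAT1, MPC2, PDHA1 and BSG then being called lower, and it was 5 without the third untreated resistant replicate alone. In these fits the share of all genes called was also higher, at 29.3% and 22.9% in that order.

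LDHA stood at 966, 970 and 944 CPM in untreated resistant cells and at 1223, 1217 and 1198 CPM after oxamate, without overlap, a log2 fold change of 0.34 ± 0.03 (adjusted p = 3.14e-06). PDK1 rose from 19.1, 19.3 and 20.3 CPM to 28.0, 29.0 and 28.0 CPM, by 1.45-fold (adjusted p = 4.51e-07). PDK3 rose from 28.3, 29.6 and 29.7 CPM to 40.3, 40.6 and 41.7 CPM, by 1.40-fold (adjusted p = 4.90e-08). All 3 rises were smaller in size than those in parental cells, a difference that was tested on its own.

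SLC16A3, which had risen in parental cells, stood at 438, 445 and 418 CPM in untreated resistant cells and at 437, 435 and 436 CPM after oxamate. Its groups overlapped, and the 95% interval of its log2 fold change of 0.01 ran from -0.06 to 0.08 (adjusted p = 0.897). SLC16A1 stood at 171, 169 and 169 CPM before and at 168, 169 and 167 CPM after, with a log2 fold change of -0.01 and an interval from -0.07 to 0.05 (adjusted p = 0.774). BSG stood at 1160, 1171 and 1135 CPM before and at 1111, 1115 and 1111 CPM after, a log2 fold change of -0.05 that missed the threshold (adjusted p = 0.122). Rises of the size seen for SLC16A3 in parental cells lay outside the intervals of both carriers here.

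MPC1 stood at 5.24, 4.42 and 4.54 CPM before and at 4.61, 4.70 and 4.01 CPM after oxamate in resistant cells, and MPC2 at 53.4, 52.4 and 49.0 before and 49.7, 50.1 and 46.7 CPM after. Both had overlapping groups and missed the threshold, with log2 fold changes of -0.09 (adjusted p = 0.552) and -0.08 (adjusted p = 0.135). PDHA1 stood at 231, 233 and 221 CPM before and at 223, 217 and 212 CPM after, a log2 fold change of -0.07 (adjusted p = 0.0758). LDHC stood at 1.33, 1.41 and 1.03 CPM before and 1.11, 1.32 and 1.51 CPM after, a log2 fold change of 0.07 with an interval from -0.36 to 0.49 (adjusted p = 0.835), an interval too wide at this depth to tell a change of nearly the size seen in parental cells from none. Of the markers, COL1A1 (0.54 on the log2 scale, adjusted p = 0.0224) and KRT8 (0.16, adjusted p = 0.00104) rose after oxamate in resistant cells, and MALAT1 at 0.79 and NEAT1 at 0.68 missed the threshold (adjusted p = 0.064 and 0.075), and their part in the members' changes was not tested.

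**Figure D2:**
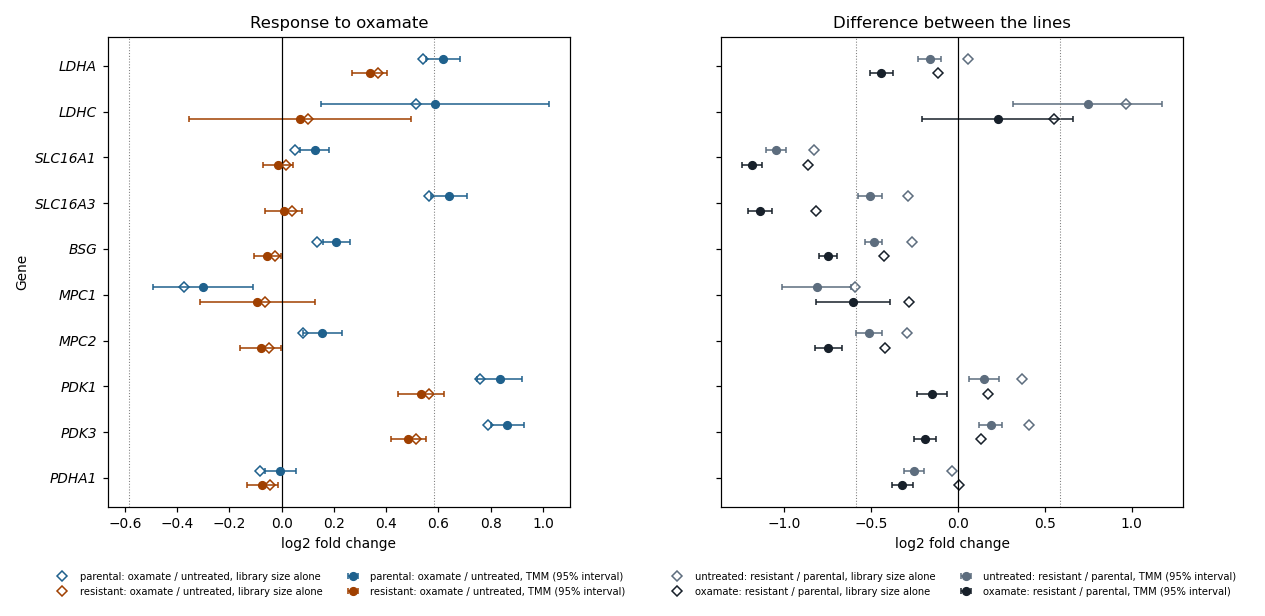
Log2 fold changes of the 10 members (rows) for oxamate over untreated cells (left) and resistant over parental cells (right). Filled points are edgeR estimates after TMM normalization with 95% intervals, open diamonds the estimates with libraries scaled by size alone, and dotted lines mark a fold of 1.5. On the left SLC16A3 is at 0.64 in parental and 0.01 in resistant cells, and on the right SLC16A1 is the lowest member untreated, at -1.05, and under oxamate, at -1.19.

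The responses of parental and resistant cells were then compared directly, as a contrast of the same model (the log2 change in resistant cells minus that in parental cells). The response was smaller in resistant cells for 7 of the 10 members, LDHA, SLC16A1, SLC16A3, BSG, MPC2, PDK1 and PDK3, and larger for 0, where 44.2% of all genes tested were called, 21.4% with a lower and 22.7% with a higher value in resistant cells. With library size only, 6 members were called smaller and 0 larger, and 74.2% of all calls were positive in place of 51.5%. SLC16A3 differed the most among those called, by -0.63 ± 0.05 (adjusted p = 5.67e-08), and was the only member past the study's threshold, which 8.48% of all genes passed, 2.94% with a lower and 5.54% with a higher value. With library size only, its difference was -0.53 and 0 members passed this threshold. Without the third untreated resistant replicate, the third oxamate-treated parental replicate or the second untreated parental replicate, 2 members passed it. In these fits 8.86%, 8.73% and 8.35% of all genes passed, in that order.

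The kinase genes responded in both lines but less in resistant cells, PDK3 by -0.38 ± 0.04 (adjusted p = 4.13e-06) and PDK1 by -0.30 ± 0.06 (adjusted p = 5.46e-04). LDHA differed by -0.28 ± 0.04 (adjusted p = 9.55e-05), BSG by -0.26 ± 0.03 (adjusted p = 1.56e-05) and MPC2 by -0.24 ± 0.05 (adjusted p = 0.00124). The difference of -0.14 ± 0.04 for SLC16A1 (adjusted p = 0.0071) came to -0.03 with library size alone and was then not called (adjusted p = 0.454). LDHC (-0.52, interval -1.13 to 0.09), MPC1 (0.21, interval -0.08 to 0.50) and PDHA1 (-0.07, interval -0.15 to 0.02) missed the threshold, with adjusted p of 0.159, 0.24 and 0.182. Without both MALAT1-rich libraries, LDHC (-0.79, adjusted p = 0.0253) and PDHA1 (-0.11, adjusted p = 0.0264) were called as well. In that fit 47% of all genes tested were called. The treated and untreated groups are shared with the comparisons above, so these values are not independent of them.

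The third comparison set untreated resistant cells against untreated parental cells. All 10 members were called, 7 lower and 3 higher in resistant cells (5 lower and 4 higher with library size only, LDHA turning higher), in a comparison in which 75.7% of all genes tested were called, 38.4% higher and 37.3% lower. By the study's threshold SLC16A1 and MPC1 were lower and LDHC higher, 3 of 10 members, where 23.4% of all genes passed, 17.2% higher and 6.14% lower. The median log2 fold change was -0.37 over the members and 0.03 over all genes. Bulk RNA cannot tell fewer expressing cells from less RNA per cell, and this holds for each difference between the lines. The markers KRT8, KRT18, KRT19 and VIM were lower as well, at -1.11, -0.69, -0.99 and -0.59 on the log2 scale, while MALAT1 (0.94, adjusted p = 0.00894), NEAT1 (1.38, adjusted p = 2.23e-04) and COL1A1 (0.36, adjusted p = 0.0493) were higher, and their part in the members' differences was not tested.

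The scaling of libraries matters here more than in the responses. When TMM factors were left out and only the library size was used, the difference between resistant and parental cells shifted upward for the median gene by 0.22 on the log2 scale untreated and by 0.33 under oxamate, and 75.5% and 76.4% of all calls were higher in place of 50.8% and 50.6%. The same shift was -0.07 and 0.03 for the oxamate responses of parental and resistant cells, and 0.11 for the difference between them. Such a change moves every gene of a comparison by the same amount, so it bears on the direction of small differences and not on the order of genes.

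SLC16A1 stood at 171, 169 and 169 CPM in untreated resistant cells against 342, 348 and 361 CPM in parental cells, a 2.07-fold lower level (log2 fold change -1.05 ± 0.03, adjusted p = 2.02e-14). SLC16A3 was 1.42-fold lower (-0.51 ± 0.03, adjusted p = 1.15e-09) and BSG 1.40-fold lower (-0.49 ± 0.02, adjusted p = 4.37e-11). The 2 carriers and their chaperone were lower in every resistant library than in every parental library. So were MPC1, MPC2 and PDHA1 (PDHA1 at most 233 CPM in resistant and at least 265 CPM in parental libraries). The untreated lines did not overlap for any of the 10 members, nor for 27 of 30 other lactate and pyruvate genes tested. The share of all genes without overlap was not computed, so nothing particular to the members is read from this. The adjusted p rule, a different measure, called 75.7% of all genes tested here. SLC16A1, SLC16A3 and BSG were lower with library size alone as well, as the plot of fold changes shows by open diamonds.

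MPC1 was 1.76-fold lower in untreated resistant cells (log2 fold change -0.81 ± 0.09, adjusted p = 9.01e-07) and MPC2 1.42-fold lower (-0.51 ± 0.04, adjusted p = 2.20e-09). PDHA1 was 1.19-fold lower (-0.25 ± 0.03, adjusted p = 5.51e-07), but only -0.03 and not called with library size alone (adjusted p = 0.19). LDHA was 1.12-fold lower after TMM (-0.16 ± 0.03, adjusted p = 2.11e-04) but 0.06 higher on the log2 scale with library size alone (adjusted p = 0.0366), so its direction between the untreated lines depends on the scaling. PDK1 (0.15 ± 0.04, adjusted p = 0.00407) and PDK3 (0.19 ± 0.03, adjusted p = 4.29e-05) were slightly higher in resistant cells under both scalings. LDHC was 1.68-fold higher (0.75 ± 0.20, adjusted p = 0.00346), from 0.733 ± 0.206 to 1.25 ± 0.202 CPM (SD, n = 3), a level still far below that of LDHA per length.

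The fourth comparison set the lines side by side under oxamate. Of the 10 members, 9 were called lower in resistant cells and 0 higher, with LDHC not called (6 lower and 3 higher with library size only, the higher ones being PDK1, PDK3 and LDHC), in a comparison that called 80.3% of all genes tested, 39.7% of them lower. By the study's threshold 5 members were lower, SLC16A1, SLC16A3, BSG, MPC1 and MPC2, where 34.3% of all genes passed, 22.9% higher and 11.4% lower. The median log2 fold change was -0.52 over the members and 0.01 over all genes. Under oxamate KRT8, KRT18, KRT19 and VIM were also lower in resistant cells, at -1.04, -0.83, -1.05 and -0.72 on the log2 scale, and MALAT1 and NEAT1 were higher, at 0.72 and 0.68, all called, and their part in the members' differences was not tested. With library size only, 2 members passed.

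SLC16A1 was 2.27-fold lower (log2 fold change -1.19 ± 0.03, adjusted p = 2.57e-15) and SLC16A3 was 2.20-fold lower (-1.14 ± 0.03, adjusted p = 4.13e-14). BSG was 1.68-fold lower (-0.75 ± 0.02, adjusted p = 1.24e-13), MPC2 1.68-fold lower (-0.75 ± 0.04, adjusted p = 1.40e-11) and MPC1 1.52-fold lower (-0.61 ± 0.10, adjusted p = 3.64e-05). LDHA was 1.36-fold lower (-0.44 ± 0.03, adjusted p = 1.52e-09), the resistant libraries at 1198 to 1223 CPM lying below the parental libraries at 1546 to 1701 CPM. With library size alone the LDHA difference was -0.12, still called lower, so its size depends on the scaling.

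PDK1 (-0.15 ± 0.04, adjusted p = 0.00272) and PDK3 (-0.19 ± 0.03, adjusted p = 2.19e-05) were lower in resistant cells after TMM but higher with library size alone, by 0.17 and 0.13 on the log2 scale, so neither has a direction between the oxamate-treated lines that holds for both scalings. PDHA1 was -0.32 ± 0.03 (adjusted p = 2.30e-08) after TMM and 0.00 with library size alone (adjusted p = 0.87). LDHC, at 0.898 to 1.26 CPM in parental and 1.11 to 1.51 CPM in resistant cells, differed by 0.23 with an interval from -0.20 to 0.66 (adjusted p = 0.311).

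Ratios of 2 members within a library do not depend on how libraries are scaled, and 5 were compared over the 4 pairs of groups with a two-sided exact permutation test over samples. With 3 libraries against 3 this test cannot go below 0.1, so no ratio could pass 0.05, and after Benjamini-Hochberg adjustment over the 20 comparisons the smallest value was 0.167. In 12 of the 20 comparisons the groups did not overlap. The ratios are of counts and their level also reflects gene length, so only their changes are described.

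The ratio of SLC16A3 to SLC16A1 counts was 1.89, 1.79 and 1.61 in untreated parental cells and 2.48, 2.45 and 2.61 after oxamate, a log2 difference of 0.52 (exact p = 0.1). It was already 2.56, 2.63 and 2.48 in untreated resistant cells, 0.54 above the untreated parental cells on the log2 scale (exact p = 0.1), and it stood at 2.61, 2.57 and 2.61 after oxamate, a difference of 0.02 (exact p = 0.6). Untreated resistant cells and oxamate-treated parental cells thus had overlapping ranges of this ratio, which came from different levels of both genes, lower in resistant cells.

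The ratio of PDK1 to PDK3 stayed between 0.652 and 0.715 in all 12 libraries, with overlapping groups in each of the 4 comparisons (log2 differences between -0.04 and 0.05, exact p from 0.3 to 0.6). The ratio of PDK1 to PDHA1 was 0.0649 ± 0.00374 in untreated parental cells and 0.116 ± 0.00427 after oxamate, and 0.0857 ± 0.00495 and 0.131 ± 0.00458 in resistant cells (SD, n = 3). It was higher after oxamate in both lines, by 0.84 and 0.61 on the log2 scale, and higher in resistant than in parental cells by 0.40 untreated and 0.17 under oxamate, without overlap in any of the 4 (exact p = 0.1 each). Relative to PDHA1 counts, PDK1 was therefore highest in oxamate-treated resistant cells. PDK1 itself was not highest there after TMM, at 28.3 CPM against 31.4 in oxamate-treated parental cells (-0.15 on the log2 scale). PDHA1 was lower by more (-0.32), and its values rest in part on split reads in all 12 libraries.

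The ratio of LDHA to PDHA1 was 3.92, 3.92 and 3.99 in untreated parental cells and 6.10, 6.29 and 5.83 after oxamate, and 4.19, 4.17 and 4.27 and then 5.48, 5.62 and 5.66 in resistant cells. It was higher after oxamate in both lines, by 0.62 and 0.41 on the log2 scale, and between the lines it was 0.09 higher untreated and 0.12 lower under oxamate in resistant cells, again without overlap (exact p = 0.1 each). The ratio of MPC1 to MPC2 was 0.113 in untreated parental cells, 0.0824 after oxamate, and 0.0916 and 0.0909 in untreated and oxamate-treated resistant cells. Its log2 difference was -0.47 for oxamate in parental cells (exact p = 0.1) and -0.01 in resistant cells (exact p = 1).

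**Figure D3:**
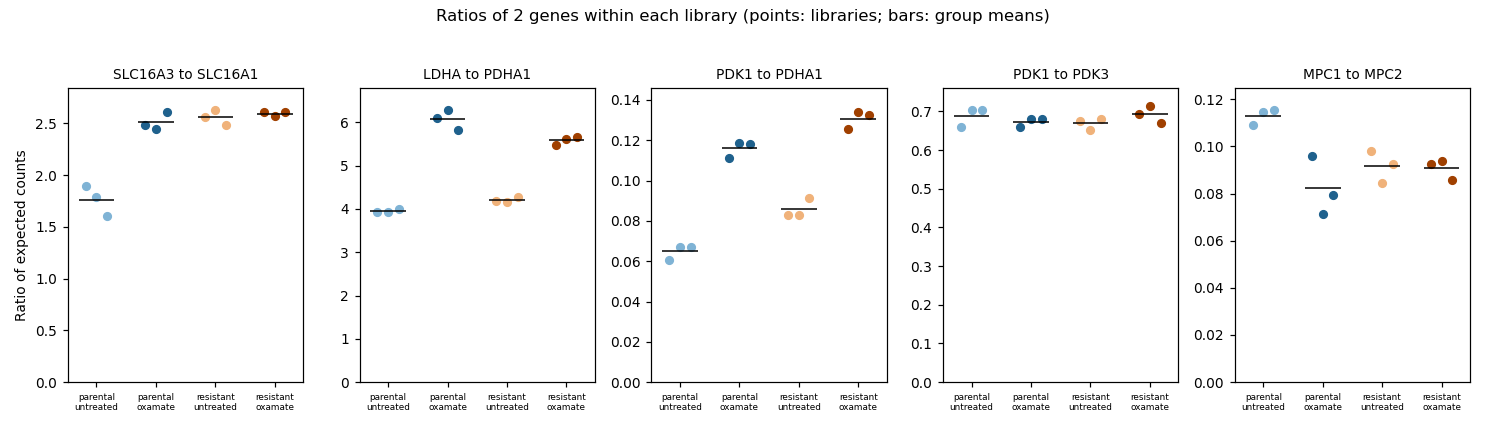
Ratios of the expected counts of 2 members within each library (vertical axes, linear and starting at 0) in the 4 groups. Points are libraries and bars group means. The ratio of SLC16A3 to SLC16A1 is lowest in untreated parental cells (1.61 to 1.89) and between 2.45 and 2.63 in the other 9 libraries, while the ratio of PDK1 to PDK3 stays between 0.652 and 0.715 throughout.

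Genes with the pattern most like a member were looked up among all genes tested, by the root mean square (RMS) difference of their log2 CPM profiles over the 12 libraries after centring each on its own mean. The 5 nearest to LDHA were GYS1, a glycogen synthase gene, at 0.0607, then GPR160, PAQR5, MPI and BCKDK, at 0.0807 or less. GYS1 stood at 124 CPM in untreated parental cells, 208 after oxamate, 115 in untreated resistant cells and 148 after oxamate, against 1074, 1647, 960 and 1213 CPM for LDHA. The nearest to SLC16A1, whose group means spanned 1.19 on the log2 scale, were MORC4 (0.0329), CD9 (0.0344) and ITPRIP (0.0492), and the nearest to SLC16A3, spanning 1.15, were CFD (0.0646), EHD2 (0.0695) and ST6GALNAC4 (0.0754).

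Looked up after their values were seen, PDK1 and PDK3 were each other's nearest gene among all 14582, at an RMS difference of 0.0395. The next nearest to either was PFKFB4, a gene of the kinase that makes the glycolytic activator fructose 2,6-bisphosphate, at 0.101 from PDK1 and 0.0800 from PDK3. The 12 libraries are 4 groups of 3, so the likeness mainly describes 4 group means, and no shared control is read from it.

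**Figure D4:**
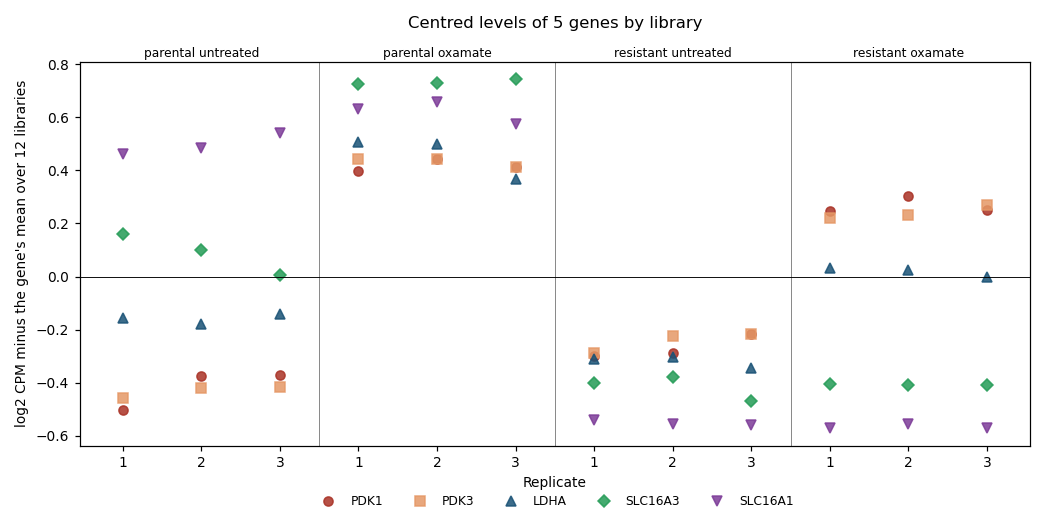
Centred log2 CPM (vertical axis, log2 CPM minus the gene's mean over the 12 libraries) of PDK1, PDK3, LDHA, SLC16A3 and SLC16A1 in each library (horizontal axis, replicates 1 to 3 of each group). PDK1 and PDK3 lie close together in all 4 groups, and SLC16A1 and SLC16A3 sit below 0 in the 6 resistant libraries.

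Beside the members, 41 other lactate and pyruvate genes were listed, of which 30 had enough reads to be tested. After oxamate 13 of the 30 were called higher and 6 lower in parental cells, where 58.7% of all genes tested were called, and 6 higher and 4 lower in resistant cells, where 21.5% were. Between the lines, 11 were higher and 14 lower in untreated resistant cells (75.7% of all genes called), and 10 higher and 13 lower under oxamate (80.3% of all genes called), with their median log2 fold changes at 0.04 and -0.07. With library size only these 4 splits were 9 and 11, 7 and 3, 16 and 7, and 15 and 6, so the side that most of the called genes took changed in 3 of the 4. Of the 9 other SLC16 family genes tested, 5 were higher and 3 lower in untreated resistant cells and 6 higher and 1 lower under oxamate, against 5 and 2, and 6 and 1, with library size only. Calls at these shares of all genes are common, and nothing particular to the listed genes is read from these counts.

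The lactate dehydrogenase genes other than the members were nearly silent apart from LDHD, which encodes the mitochondrial D-lactate dehydrogenase. LDHD rose with oxamate in parental cells from 20.0, 18.2 and 17.1 CPM to 29.3, 27.5 and 30.6 CPM, a log2 fold change of 0.65 ± 0.06 (adjusted p = 1.22e-07). In resistant cells it stood at 20.6, 20.8 and 18.9 CPM before and 21.8, 21.7 and 23.7 CPM after, 0.16 on the log2 scale and not called, and the difference between these responses was -0.50 (adjusted p = 1.85e-04). LDHAL6A and LDHAL6B had at most 2 and 4 counts in any library.

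EMB, which encodes embigin, a partner of monocarboxylate transporters related to basigin, showed the widest difference between the lines of all listed genes. It stood at 0.198, 0.142 and 0.129 CPM in untreated parental cells and at 3.19, 3.38 and 3.49 CPM in untreated resistant cells, a log2 fold change of 4.37 ± 0.17 (adjusted p = 2.29e-12). Under oxamate the values were 0.125, 0.209 and 0.130 CPM in parental and 3.20, 3.99 and 3.24 CPM in resistant cells (4.49 ± 0.19, adjusted p = 2.41e-12). EMB thus differed in the opposite direction to BSG, yet per kilobase it remained far lower in resistant cells, at 0.783 against 584 CPM per kb. EMB values were not whole in 11 of 12 libraries, so they rest in part on reads that were split between genes. EMB lies at chr5:50396192-50443248 on the minus strand.

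Of the remaining carriers, SLC16A7, which encodes MCT2, had at most 4 counts, and SLC5A8 and the lactate receptor gene HCAR1 had 0. SLC16A9 (8.46, 8.82 and 9.86 CPM against 3.57, 3.63 and 3.55), SLC16A13 (8.01, 8.26 and 9.02 CPM against 4.38, 3.88 and 4.36) and SLC16A5 (28.4, 28.8 and 28.7 CPM against 18.8, 19.1 and 17.5) were higher in untreated resistant than in untreated parental cells, by 1.33, 1.01 and 0.63 on the log2 scale (adjusted p = 7.01e-11, 1.15e-09 and 7.46e-10). Under oxamate SLC16A13 was higher in resistant cells by 1.52 (adjusted p = 1.13e-11). After oxamate in parental cells SLC16A14 changed by -0.60 ± 0.05 on the log2 scale (adjusted p = 1.50e-07) and SLC16A6 by -0.69 ± 0.17 (adjusted p = 0.00285). SLC16A6 was also the only other listed gene past the study's threshold for the difference of responses, at 0.66 ± 0.23 (adjusted p = 0.0313). SLC16A4, at 0.151 to 0.420 CPM in resistant libraries, rose by 0.97 ± 0.28 with oxamate there (adjusted p = 0.0249), while SLC16A8 and SLC16A11, both under 0.5 CPM, passed the study's threshold there but not the adjusted call (adjusted p = 0.131 and 0.1).

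In the pyruvate dehydrogenase group, PDHX, the subunit that anchors E3 in the complex, was lower in resistant cells under oxamate (121 to 126 CPM against 181 to 194, log2 fold change -0.61 ± 0.03, adjusted p = 2.87e-11). PDPR, the regulatory subunit of the phosphatase that reverses PDK, was higher there (156 to 164 CPM against 104 to 107, 0.60 ± 0.03, adjusted p = 4.14e-11). PDPR and PDHX both held fractions of shared reads in these libraries. The catalytic subunit genes of that phosphatase split there, PDP1 at 0.57 (adjusted p = 8.56e-07) and PDP2 at -0.55 (adjusted p = 2.17e-08). The other kinase genes of this step split between the untreated lines. PDK4 was higher in resistant cells by 0.89 (adjusted p = 3.16e-08), and PDK2 was at -0.20 (adjusted p = 0.00337), all after TMM. GPT, an alanine aminotransferase gene that turns pyruvate into alanine, rose by 1.26 ± 0.28 with oxamate in parental cells (adjusted p = 9.90e-04), from 0.264, 0.264 and 0.289 CPM to 0.536, 0.533 and 0.855 CPM, and by 0.62 in resistant cells without an adjusted call (adjusted p = 0.129).

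**Figure D5:**
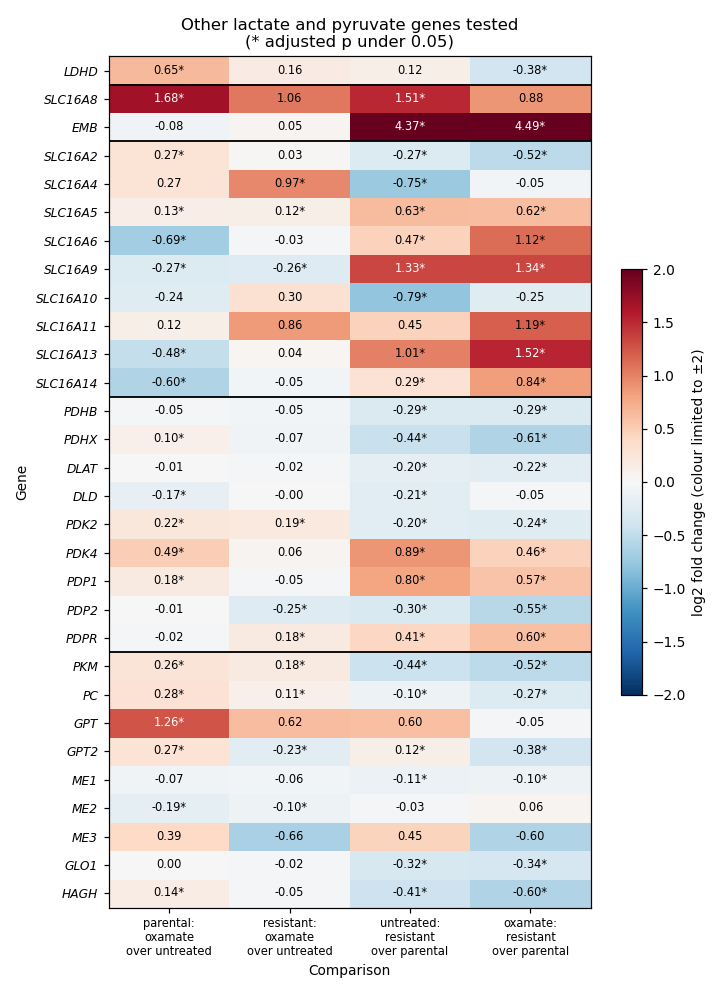
Log2 fold changes of the 30 other listed genes that were tested (rows, grouped by role) in 4 comparisons (columns). Red is higher, blue lower, the colour stops at 2 in either direction, and an asterisk marks an adjusted p under 0.05. EMB stands out in both columns that set resistant against parental cells, at 4.37 and 4.49.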

How the data were processed

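RNA from 12 samples, 3 in each of 4 groups taken from the labels, was analysed. Per the study's methods and the submitters' processing notes, the authors enriched mRNA with oligo(dT), made unstranded libraries read at 150 bp from each end, mapped them to hg38 transcripts with Bowtie2 2.1.0 and deposited RSEM 1.2.15 expected counts per gene symbol, without normalization. A STAR and featureCounts route is also described, but 11.6% of the values are not whole, as RSEM gives. Reads shared by similar genes are thus split by estimate.

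After rounding, the counts of 14582 genes that passed the default low-count filter of edgeR 4.0.16 (in R 4.3.3) were scaled by TMM and tested with its quasi-likelihood test on 4 group means over all 12 libraries, with Benjamini-Hochberg adjustment over all of them. The script was tested on simulated data. Errors of log2 fold changes are standard errors and intervals are at 95%. Nothing in the labels says that replicates came from separate cultures, so p-values measure the spread between these samples, which may be technical. Depth ranged from 46698729 to 114222169 counts, and the floor of 3 counts covers counting error only. No 2 libraries were identical. Ratios were tested with SciPy 1.17.1, and figures were drawn with matplotlib 3.10.9. Positions are from GENCODE 29 and promoter windows from RefSeq.

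The members and gene lists were chosen with earlier results of these data known. All 10 members are named, as are LDHB and, of the other listed genes past the study's threshold, the 4 with the smallest p in each comparison, fewer where fewer passed. PDK1's and PDK3's nearest genes, and PDP1, PDP2, PDK2 and PDK4, were named after their values were seen. Alternatives were RLE, upper-quartile and no scaling factors, no low-count filter, unrounded counts, DESeq2 1.42.0, limma-voom 3.58.1, a replicate block, fits on only the 6 samples compared, other folds, pseudocounts for ratios, and each library left out. Leaving out 2 MALAT1-rich libraries and a test against a fold of 1.2 were chosen after seeing the data. The chromatin and metabolite measurements of the study were not analysed here.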

Additional observations from a re-analysis of the deposited data

Results flagged for a closer look

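The oxamate response of 7 members differed between resistant and parental cells by the test of the difference itself (the contrast of both responses in edgeR, adjusted p under 0.05). The log2 change in resistant cells minus that in parental cells was -0.63 for SLC16A3, -0.38 for PDK3, -0.30 for PDK1, -0.28 for LDHA, -0.26 for BSG, -0.24 for MPC2 and -0.14 for SLC16A1. All 7 values are negative, and 44.2% of all genes tested were called in this contrast. The value for SLC16A1 came to -0.03 with library size alone and was then not called. LDHC (-0.79) and PDHA1 (-0.11) were called too when both MALAT1-rich libraries were left out.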

How the results depend on the processing

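Fold changes of the members kept their direction and side of the threshold in 1051 cases, turned direction in 16, gained the call in 14 and lost it in 9, and where no cause is named it was not tested. With library size alone, 2 members passed the study's threshold for oxamate in parental cells, 2 between the lines under oxamate and 0 for the difference of responses, in place of 5, 5 and 1. A fold over 2 gave 0, 2 and 0 there and 1 between the untreated lines (3 at a fold of 1.5). A fold over 1.2 gave 3 for oxamate in resistant cells (0 at 1.5), 6 between the untreated lines and 5 for the difference, and a test against a fold of 1.2 gave 2, 6 and 2. Without both MALAT1-rich libraries, 6 members were called for oxamate in resistant cells in place of 3, where 29.3% of all genes were called in place of 21.5%. In that fit 2 members passed the study's threshold for the difference, which 9.58% of all genes passed. LDHC and PDHA1 then gained the call for the difference. Leaving out 1 library gave 3 to 5 called members for oxamate in resistant cells, the 5 without the third untreated resistant replicate, and 1 to 2 past the threshold for the difference. Without that replicate 22.9% of all genes were called for oxamate in resistant cells.

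Same-numbered libraries of different groups correlated little (18 pairs, -0.074 to 0.245, 3 over 0.1), so the numbers were not taken as pairs. A replicate block gave 5 called members for oxamate in resistant cells in place of 3, adding MPC2 and PDHA1, and changed no other count of calls by over 1.5 times. With the block 25.7% of all genes were called for oxamate in resistant cells.

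Log2 values near 0 changed sign. For oxamate in parental cells, PDHA1 was 0.00768 with upper-quartile factors, 0.01041 without the MALAT1-rich libraries and -0.02547 to 0.0103 leaving out 1 library. For oxamate in resistant cells, LDHC was -0.05596 and SLC16A3 -0.01934 without the MALAT1-rich libraries, and -0.05638 to 0.1742 and -0.01877 to 0.02517 leaving out 1 library, and SLC16A1 was 0.01084 with upper-quartile factors and 0.01789 with library size alone. With library size alone, which moves all genes alike, LDHA was 0.05767 between the untreated lines, PDK1 0.1745, PDK3 0.1347 and PDHA1 0.004241 between the oxamate-treated lines, and PDHA1 0.03807 for the difference. Leaving out 1 library, the log2 difference for oxamate in resistant cells ran from -0.0015 to 0.0410 for the SLC16A3 to SLC16A1 ratio and from -0.0693 to 0.0389 for MPC1 to MPC2. The depth limits LDHC, at 34 to 94 counts a library, and LDHB, which no library measured above the floor.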
